A study of Homo sapiens with 8 samples.

Results

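bktRNA133 is a 137 nt RNA that co-purified with SNU13, the kink-turn binding protein that the labels call 15.5K, and it carries a second pair of box-like elements between its end boxes. Its rows were taken by name from the deposited table of reactivity scores, so it is 1 of 14 RNAs and 137 of 1279 listed nucleotides. The naming rule used no measured value, but the RNA was chosen with earlier results of these data known.

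The RNA came from HEK293T, a human embryonic kidney cell line, that stably overexpressed FLAG-15.5K in every library. Whether the line was 1 clone was not given in the sources used here. Protein-bound RNA was pulled down with an anti-FLAG antibody and treated on the beads with NAI-N3 (4 libraries), which marks flexible nucleotides by acylating their ribose in the SHAPE chemistry, or with its solvent DMSO (4 libraries). Adducts were read as mutations during reverse transcription. For each nucleotide the table lists a single score for the whole series. It names no library and states no unit. No value per library was used here, depth and the spread between replicates are therefore unknown, and all comparisons below are descriptions with no test. SDs are over nucleotides, which are not replicates.

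Boxes C and D are the short conserved motifs of box C/D small nucleolar RNAs, which guide 2'-O-methylation. Box C and box D fold against each other into a kink-turn, a sharp bend held by sheared G-A pairs, and SNU13 binds that bend. In the canonical RNAs box C lies near the 5' end and box D near the 3' end, internal copies called D' and C' lie between them, and the guide sequence directly precedes box D or D'. In bktRNA133 the end boxes are in the opposite order, with box D first.

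The RNA lies on hg38 at chr1:156952195-156952331, minus strand. RefSeq (GRCh38.p14) places this within the span of ARHGEF11 (gene 9826, chromosome 1, 156934840 to 157046903), which is transcribed from the same strand. The RNA begins 94.6 kb downstream of the gene's 5' boundary and ends 17.4 kb before its 3' boundary. Whether it is exonic or intronic was not analysed here.

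The whole sequence as listed in the deposited table, 5' to 3', is shown because the results concern where its boxes lie. Capitals mark box D (nt 5 to 8), the D'-like box (nt 37 to 40), the C'-like box (nt 65 to 71) and box C (nt 128 to 134).
bktRNA133: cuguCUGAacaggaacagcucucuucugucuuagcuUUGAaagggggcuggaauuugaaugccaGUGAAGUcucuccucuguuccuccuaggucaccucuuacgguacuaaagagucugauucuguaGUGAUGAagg

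Box D is an exact CUGA and box C, GUGAUGA, an exact match to the consensus AUGAUGA or GUGAUGA. The D'-like box, UUGA, has 1 mismatch to CUGA, and the C'-like box, GUGAAGU, has 2 mismatches. The matching rules were loose and were applied to the listed strand only. For D-type, 1 mismatch to CUGA was allowed if the last letters are GA. For C-type, 2 mismatches were allowed if letters 2 to 4 are UGA. D-type matches started at 7 of 134 windows of bktRNA133 (5.22%) and at 60 of 1103 windows of the other RNAs (5.44%). C-type matches started at 3 of 131 windows (2.29%) and at 18 of 1064 (1.69%). All these counts include the end boxes, and the D-type counts include matches inside box C, so the shares are not a background rate. Between the end boxes, bktRNA133 had 1 C-type match, the C'-like box. Of the other RNAs with a box D, 0 of 12 had one there, but the other RNAs were mostly shorter (median 59 nt). Of the 7 D-type matches of bktRNA133, 3 lay inside C-type matches. The other 4 were box D, the D'-like box, a second UUGA at nt 55 to 58 and a second exact CUGA at nt 117 to 120.

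The flanks of the boxes also differ. In a kink-turn the box motifs are continued by a stem on each side. Outside the end boxes, from the C of box D paired with the G of box C position 6 outward, 4 of 5 opposed positions can pair (Watson-Crick or G-U). On the other side of the boxes, from nt 9 and nt 126 inward, 6 of 6 can pair. For the internal boxes in the same geometry the counts were 2 of 5 and 1 of 6. Both boxes keep the G and A of the sheared pairs, but the matching rules require these letters. Every D-type and C-type match therefore has them. Of all pairs of nucleotides in this RNA at least 4 nt apart, 40.8% can pair, so the internal counts are near or below that share. The C'-like box set against the CUGA at nt 117 gives the canonical C-before-D order, in which the sides are swapped. That pairing had 4 of 5 on the side between the boxes and 2 of 6 on the side outside them. The counts varied with the partner chosen. The D'-like box with box C had 2 of 5 and 5 of 6, the UUGA at nt 55 had 2 of 5 and 4 of 6 with box C, and 3 of 5 and 0 of 6 with the C'-like box. Box D with the C'-like box had 2 of 5 and 1 of 6, and the CUGA at nt 117 with box C had 2 of 5 and 2 of 6.

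The profile was broad and low, with many separate peaks in its middle and scores of 0 over its last 21 nt. Scores ran from -0.0124 to 0.0460, with a mean of 0.00629 ± 0.0117 (SD over 137 nt) and a median of 0. With zeros treated as not measured the mean was 0.0120. Scores above 0 were listed at 59 nt, scores below 0 at 13 nt, and an exact 0 at 65 nt (47.4%). A Wilson 95% interval for this share is 39.3 to 55.8 if nucleotides are taken as independent. They cannot safely be, since 37 of the 65 zeros lay in 4 runs of at least 3, so the interval serves only as a yardstick for the alternative settings. Over all 14 RNAs the mean of bktRNA133 ranked 9, its highest score ranked 12 and its share of zeros ranked 4, while its length ranked 3.

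The scores were also coarse. Of the 72 nt with a score other than 0, 3 had a size under 0.001, 0 lay between 0.001 and 0.003, and 27 lay between 0.003 and 0.006. The same size recurred exactly: 0.00415 was the score of nt 23 and, with a minus sign, of nt 13 and nt 14. The value 0.0287 was listed at both nt 3 and nt 72. In all, 13 nt shared a size with another nucleotide. Whether few reads lie behind these steps, which would bear on single scores and on zeros, was not tested. The smallest size of at least 0.001 was 0.00335, at nt 104 alone, and the smallest recurring size was 0.00412. A difference between neighbours of less than about 0.00335 should not be read as an order, and one near 0.00412 only with caution. As a floor from the profile itself, 29 nt (21.2%) scored above 0.0124, the size of its most negative score.

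**Figure D1:**
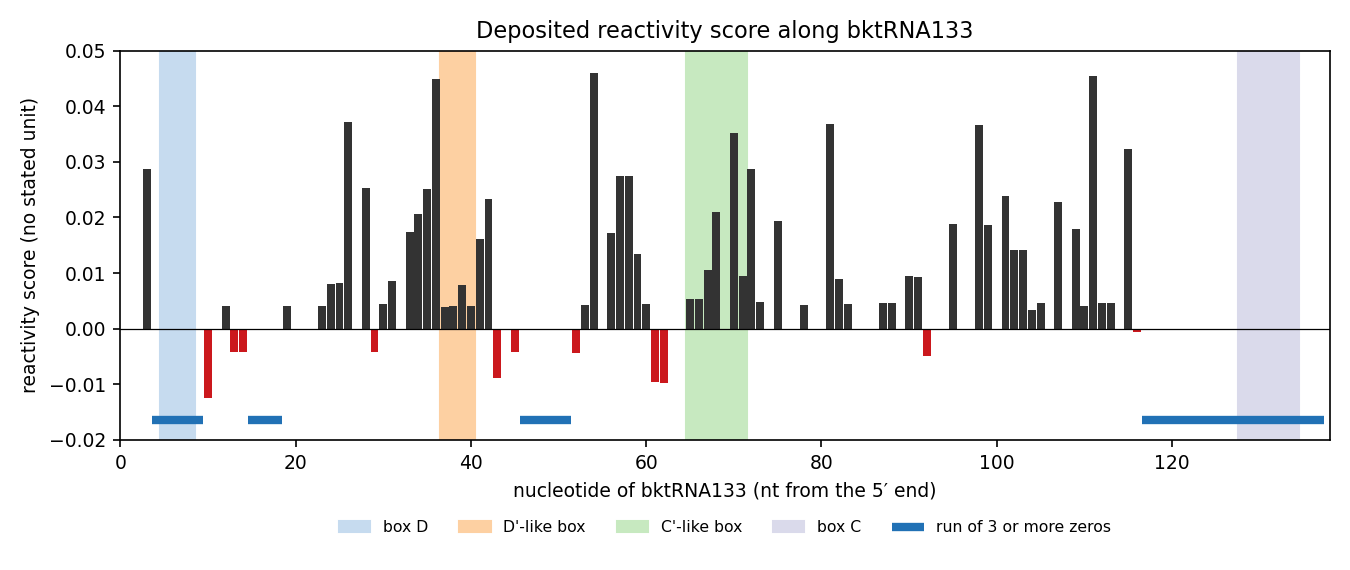
The deposited reactivity score (no stated unit) is plotted for each of the 137 nt, counted from the 5' end, with scores below 0 in red, the 4 boxes shaded and runs of 3 or more zeros marked by blue bars. Both end boxes lie within runs of zeros, while the internal boxes hold scores up to 0.00792 (D'-like) and 0.0352 (C'-like).

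The end boxes were at 0 throughout. Box D read 0 at C5, U6, G7 and A8, and all 7 nucleotides of box C read 0, against a mean of 0.00684 ± 0.0120 (SD over 126 nt) elsewhere in the RNA. Neither box was an isolated dip. Box D lies in a run of zeros from nt 4 to nt 9, and box C in a run from nt 117 to nt 137 that also covers the CUGA at nt 117, 7 nt between that match and box C, and the 3 nt after box C. The table does not separate a measured 0 from a position where no value could be obtained. Low end boxes were not particular to bktRNA133. In the other RNAs the box D means ran from -0.000449 to 0.00250 (median 0.000465), with bktRNA61 also at 0. Their box C means ran from -0.000155 to 0.00350 (median 0.00149).

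The run at the 3' end, 21 nt, was the longest run of zeros in the 14 RNAs. In the other 13 the zeros at the 3' end numbered 2 to 4, with a median of 2, and the longest run anywhere was 13 nt. The first 2 and last 2 nt were 0 in all 13 of these as well. No other RNA had all 7 box C nucleotides at 0, although 3 of 13 had 6 of them at 0. The 0 of box C in bktRNA133 is therefore not separable from the 0 of the whole 3' end, and the cause of the run was not tested.

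**Figure D2:**
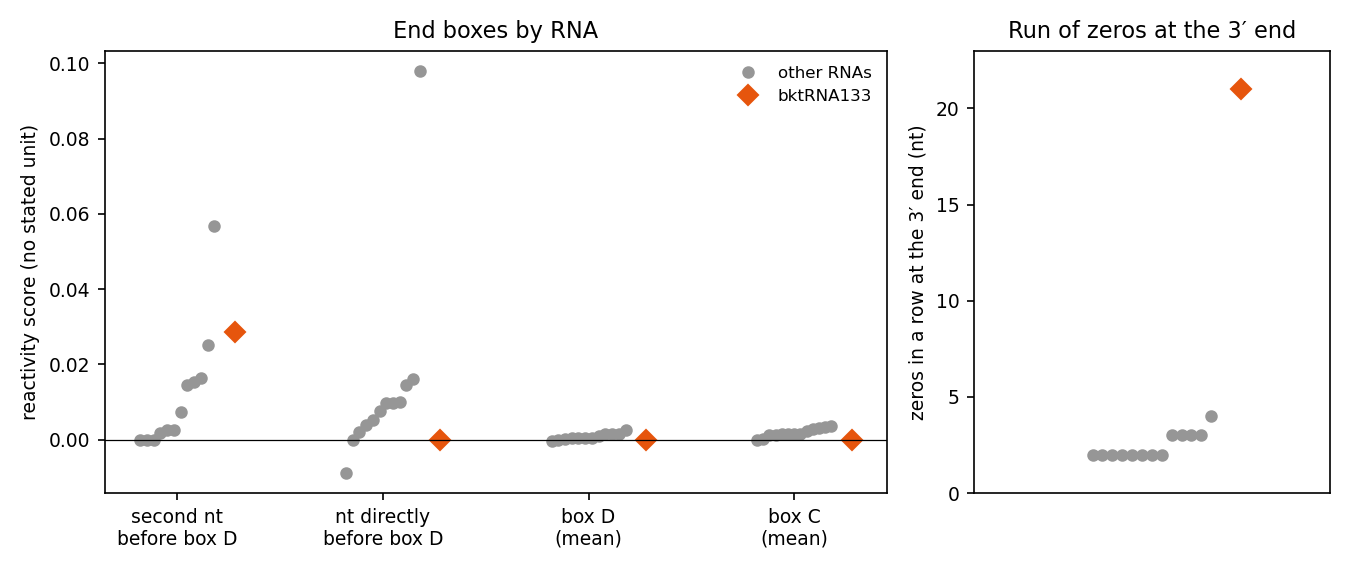
The left panel plots the score (no stated unit) at the second nucleotide before box D, at the nucleotide directly before it, and the means of box D and box C, and the right panel plots the zeros in a row at the 3' end (nt). Grey points are the other RNAs (12 for box D, 13 for box C and the run), orange diamonds bktRNA133, which has 21 zeros at its 3' end where the others have at most 4.

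The internal boxes had scores other than 0 at 10 of their 11 nt, against 72 of 137 nt in the whole RNA. Before the 3' run of zeros, 44 of 116 nt were at 0. The end boxes had only zeros, but the 7 nt of box C lie in that run. The 2 internal boxes differed. In the D'-like box the scores were 0.00386 at U37, 0.00400 at U38, 0.00792 at G39 and 0.00412 at A40, a mean of 0.00498 ± 0.00197 (SD over 4 nt). All 4 were above 0, but all were below the floor of 0.0124, and 3 of them lay in the lowest common size class. The mean was slightly below that of the other 133 nt, 0.00633 ± 0.0119.

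The C'-like box read 0.00541 at G65, 0.00541 at U66, 0.0106 at G67, 0.0209 at A68, 0 at A69, 0.0352 at G70 and 0.00955 at U71. Its mean was 0.0124 ± 0.0119 (SD over 7 nt), against 0.00596 ± 0.0116 for the other 130 nt. The higher values sat in its second part, at A68 and G70, with a 0 between them, and only these 2 of its 7 nt exceeded the floor of 0.0124. G70 ranked 7 among the 137 nt. A68 and G67 occupy positions 4 and 3 of the motif, the places of the sheared G-A pairs in a kink-turn.

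Both internal boxes together averaged 0.00973 ± 0.01004 (11 nt), and the remaining nucleotides 0.00599 ± 0.0118 (126 nt), a difference of 0.00374. The sign of that difference came from the C'-like box, since the D'-like box alone gave -0.00135. It was 0.00254 when only the run of zeros at the 3' end was left out, 0.00317 when only the end boxes were, and 0.00226 against the 101 nt outside all boxes and before nt 117 (mean 0.00747 ± 0.0128). With zeros treated as not measured it turned to -0.00146, so no direction is drawn for the internal boxes as a pair.

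Each D-type box had a high score within the 2 nt before it. The stretch shown covers the 10 nt before the D'-like box, the place of a guide in canonical RNAs, with the box in capitals (chr1:156952286-156952305, minus strand).
nt 27 to 46: ugucuuagcuUUGAaagggg

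The 4 nt before the D'-like box read 0.0175 at A33, 0.0207 at G34, 0.0251 at C35 and 0.0449 at U36. These scores climbed toward the box, although A33 and G34 differ by less than 0.00335. G34 and C35 differ by only slightly more than the smallest recurring size, 0.00412. Their mean was 0.0270 ± 0.0123 (SD over 4 nt), and U36 ranked 3 in the RNA. The score then dropped to 0.00386 at U37, the first nucleotide of the box, and stood at 0.0161 at A41 and 0.0234 at A42, directly after it. The box was thus a trough of 4 nt between higher flanks. The 10 nt before the box averaged 0.0142 ± 0.0153, and the 10 nt before those averaged 0.00616 ± 0.0114, with 0.0372 at C26 as the highest.

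Before box D, the values were 0 at C1, 0 at U2, 0.0287 at G3 and 0 at U4. Only G3, the second nucleotide before the box, had signal, and its score was the second highest at that place among the 13 RNAs with a box D near the 5' end (other RNAs, median 0.00505, range 0 to 0.0567). The nucleotide directly before box D, at 0, ranked 11 of 13 (other RNAs, median 0.00862). In 6 of the other 12 RNAs the second nucleotide before the box was above the one directly before it, though not always by much. The 2 scores were nearly equal in bktRNA43 (0.0154 and 0.0146) and bktRNA61 (0.0163 and 0.0160). In bktRNA105 they were 0 and -0.00891, so the second nucleotide had no signal. The others were bktRNA21 (0.0144 and 0.00969), bktRNA23 (0.0567 and 0) and bktRNA28 (0.0252 and 0.00511).

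The 2 further D-type matches were also preceded by a peak. The exact CUGA at nt 117 is preceded by 0.0324 at G115 and -0.000525 at U116, and then reads 0 throughout. The UUGA at nt 55 is preceded by the highest score of the RNA, 0.0460 at U54, and reads 0 at U55, 0.0172 at U56, 0.0275 at G57 and 0.0274 at A58. In that match the mean was 0.0180 ± 0.0129, above the 0.00498 of the D'-like box with the same letters.

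At least 1 of the 2 nt directly before the match exceeded the mean of the match in all 4. At nt 37 both did, at nt 55 the nucleotide at offset -1 did, and at nt 5 and nt 117 the one at offset -2. Over all 4-nt windows this held in 51.5% for bktRNA133 (68 of 132) and in 57.8% for the other RNAs (622 of 1077). In the other RNAs it held at 11 of 12 end boxes D and at 8 of 20 further D-type matches. The nucleotide at offset -1 alone was above the mean of the match in 2 of 4, where the share over all windows was 32.6% in bktRNA133 (43 of 132) and 41.3% in the other RNAs (445 of 1077). There it was higher at 10 of 12 end boxes D and at 8 of 20 further matches. With 4 matches, neither count can be set apart from these shares.

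**Figure D3:**
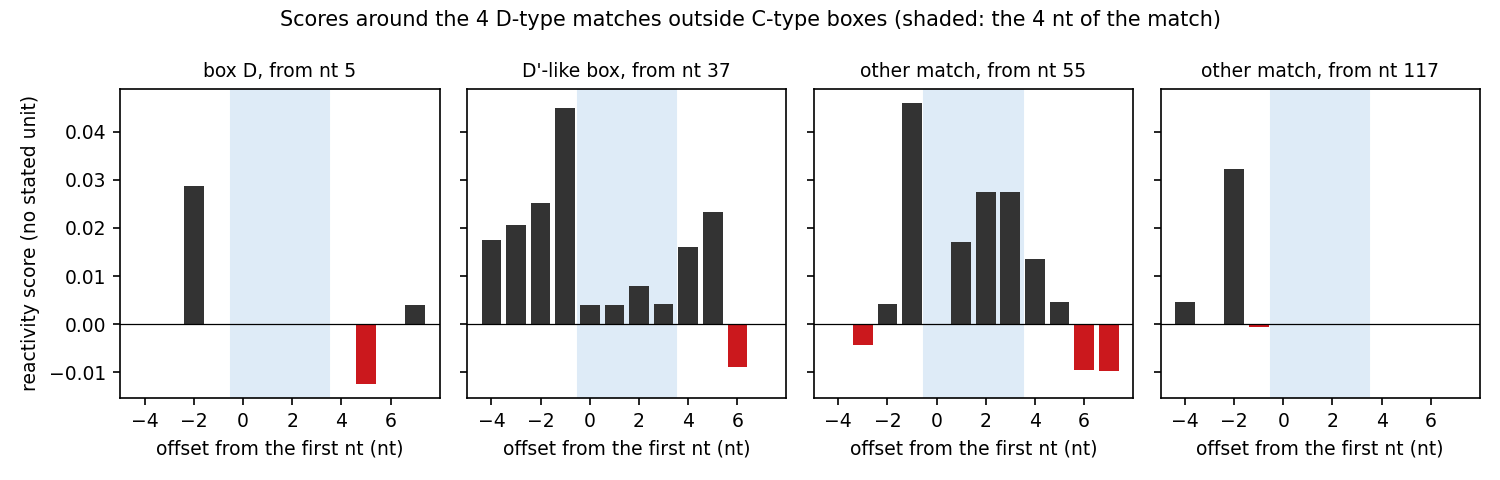
Scores (no stated unit) are plotted from 4 nt before to 7 nt after the first nucleotide of the 4 D-type matches that lie outside C-type matches, with the 4 nt of each match shaded and scores below 0 in red. The highest bar lies directly before the matches at nt 37 (0.0449) and nt 55 (0.0460), and 2 nt before those at nt 5 (0.0287) and nt 117 (0.0324).

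Because the RNA repeats several 6-letter stretches, identical letters can be compared at different places within it. The first pair below shares GUCUGA, with box D in the upper line, and the second pair shares UUUGAA, with the D'-like box in the upper line of that pair. Capitals mark the shared letters.
nt 1 to 12: cuGUCUGAacag
nt 113 to 124: gaGUCUGAuucu
nt 33 to 44: agcUUUGAAagg
nt 51 to 62: gaaUUUGAAugc

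The GUCUGA copies each had a high first G and values at or near 0 after it, though the last 4 nt of the second copy lie in the 3' run of zeros. The copy at nt 3 to 8 read 0.0287 at its first G and 0 at the next 5 nt. The copy at nt 115 to 120 read 0.0324 at its first G, -0.000525 at the U, and 0 at the last 4 nt. Their means were 0.00478 and 0.00531.

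The UUUGAA copies were alike at their first and last letters. The first U scored 0.0449 at nt 36 and 0.0460 at nt 54, and in both the next U was far lower, at 0.00386 and 0. The UGA that follows then read 0.00400, 0.00792 and 0.00412 in the D'-like box, and 0.0172, 0.0275 and 0.0274 in the second copy. The last A read 0.0161 and 0.0135. The largest differences were thus at the UGA of the box-like motif, while the first U and the last A of the stretch differed by less than 0.00335.

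The other 3 repeats were less alike. UUCUGU read 0.00808, 0.00826, 0.0372, 0, 0.0253 and -0.00422 at nt 24 to 29, but 0 at all 6 positions at nt 121 to 126, inside the 3' run of zeros. CUGUCU averaged 0.00478 at nt 1 to 6 and 0.0119 at nt 26 to 31. GAACAG was near 0 in both places, with means of -0.00141 at nt 7 to 12 and -0.00138 at nt 13 to 18.

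The stretches between the boxes were uneven. From nt 5 to nt 18, box D and the purine-rich stretch after it, 1 nt of 14 was above 0 (0.00402 at G12), and the lowest score of the RNA, -0.0124, was at C10. Between the internal boxes, the 10 nt from G43 to A52 had 0 nt above 0 and 3 below, with a mean of -0.00176 ± 0.00309. The 8 nt that follow, nt 53 to 60, averaged 0.0175 ± 0.0155 with 7 above 0. Scores were below or at 0 again from G61 to A64, directly before the C'-like box, where G61 read -0.00962 and C62 -0.00971.

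The stretch after the C'-like box is nearly all pyrimidine. It is shown from nt 70 with its single purine before nt 90 and after nt 71 in capitals (chr1:156952240-156952262, minus strand).
nt 70 to 92: gucucuccucuGuuccuccuagg

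From nt 72 to nt 89, 17 of 18 nt are C or U. The exception, G81, had the highest score there, 0.0368, the fifth highest of the RNA. The 17 pyrimidines averaged 0.00468 ± 0.00794, with 8 at 0 and 2 above 0.01, C72 at 0.0287 and U75 at 0.0193.

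The last reactive region ran from nt 90 to nt 115 and averaged 0.0108 ± 0.0130 (SD over 26 nt), with 17 nt above 0. Its peaks were A111 at 0.0455, the second highest score of the RNA, U98 at 0.0367 and G115 at 0.0324. Signal then ended within 2 nt, at -0.000525 in U116 and 0 from C117 on.

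The 10 highest scores were spread over the RNA, from G3 to G115, and included 4 G, 3 U, 2 C and 1 A. By base, the means were 0.00792 ± 0.0116 at A (30 nt), 0.00660 ± 0.0128 at G (34 nt), 0.00641 ± 0.0118 at U (43 nt) and 0.00412 ± 0.0105 at C (30 nt). These means differ by less than their SDs. Before nt 117, 57.1% of C but 25.9% of G were at 0.

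The structure was predicted with ViennaRNA from sequence alone, without protein or kink-turns, and was poorly defined. The minimum free energy structure had 38 pairs and -30.2 kcal/mol, but made up 0.203% of the predicted ensemble. Under 6 ways of predicting it (minimum free energy, also at 25 degrees C, without dangling end energies or with boxes kept unpaired, centroid, and maximum expected accuracy), 9 pairs were common to all: nt 9 to 14 with nt 121 to 126, and nt 16 to 18 with nt 117 to 119. Each had a probability of 0.501 to 0.531. The first 6 of these pairs are the 6 that continue the end boxes inward in the kink-turn geometry.

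Scores in this shared stem were low or listed at 0. The 9 nt of the 5' strand averaged -0.00186, from -0.0124 to 0.00402, and the 9 nt of the 3' strand were all 0. In total 14 of the 18 nt were at 0, and the 3' strand lies wholly in the 3' run of zeros. Scores other than 0 therefore come from the 5' strand alone. A second low stem, nt 47 to 51 with nt 62 to 66 (mean pair probability 0.493), averaged 0.000110 ± 0.00412 and closes the loop described next.

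In the minimum free energy structure, unpaired nucleotides averaged 0.0102 ± 0.0142 (61 nt) and paired ones 0.00311 ± 0.00794 (76 nt). Hairpin loops had 0.0146 ± 0.0153 (16 nt), internal regions (bulges, internal loops and multiloops) 0.0103 ± 0.0143 (38 nt), and the 7 external nucleotides outside all stems were at 0. Before nt 117 the means were 0.0120 ± 0.0147 unpaired (52 nt) and 0.00369 ± 0.00854 paired (64 nt). The difference between unpaired and paired depended on the structure used. It was 0.00714 with the minimum free energy structure, -0.000613 when dangling ends were given no energy, and -0.000841 when the 4 boxes were kept unpaired. Across the 137 nt, the score and the predicted probability of being unpaired had a Spearman correlation of 0.269, and of 0.290 over nt 1 to 116. All points share 1 RNA and 1 prediction.

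The predicted hairpin loops were nt 52 to 61 (mean 0.0126 ± 0.0172) and nt 98 to 103 (mean 0.0179 ± 0.0121). The first holds the UUGA at nt 55 and, with U54, the highest score, but also A52 and G61 below 0. The second had 5 of 6 nt above 0. Among internal regions, nt 35 to 38, which joins the peak at U36 to the start of the D'-like box, averaged 0.0195 ± 0.0197, and nt 67 to 75, which holds most of the C'-like box, 0.0144 ± 0.0125. The rest of the D'-like box, G39 and A40, was predicted as paired. Of the 10 highest scores, internal regions (38 of the 137 nt) held 6 and hairpin loops (16 nt) held 2. Stems (76 nt) held 2, at G3 and G115. These classes come from the minimum free energy structure alone, which pairs G3 with U132 of box C. In the kink-turn geometry above, G3 is instead opposed to A135, with which it cannot pair.

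**Figure D4:**
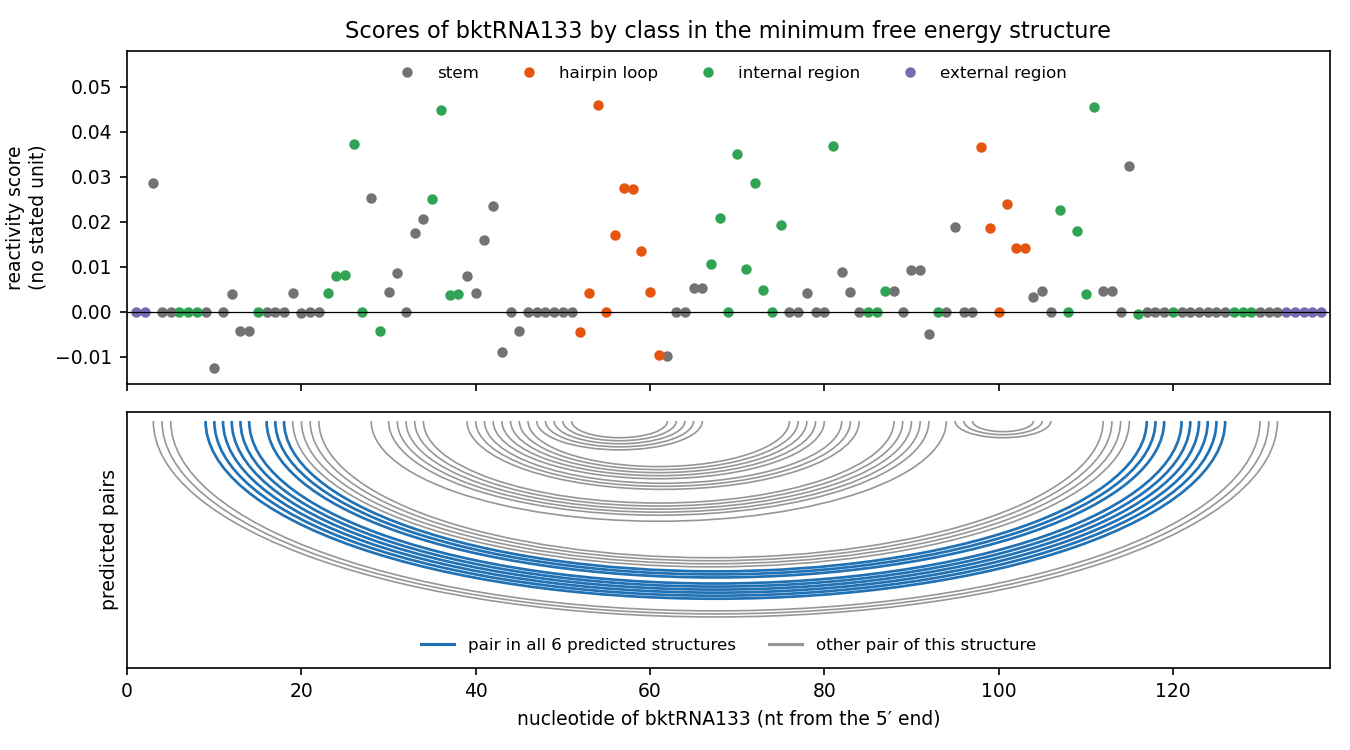
The upper panel plots the score (no stated unit) of each nucleotide by its class in the minimum free energy structure, and the lower panel joins paired nucleotides with arcs, in blue for the 9 pairs found in all 6 predicted structures. The blue stem joins nt 9 to 18 with nt 117 to 126, where scores reach at most 0.00402.

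At the ends, the profile most like that of bktRNA133 was bktRNA23, with a Spearman correlation of 0.443 over 30 positions around both end boxes, followed by bktRNA29 (0.262) and bktRNA385 (0.252). This likeness rests on few values, since all 15 positions around box C were 0 in bktRNA133. Over the 15 positions around box D alone, the correlations were 0.456, 0.348 and 0.466. The longest stretches of sequence shared with another RNA were 9 nt with bktRNA385 (nt 128 to 136), 8 nt with bktRNA61 (nt 128 to 135) and 8 nt with bktRNA16 (nt 127 to 134). All 3 contain box C.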

How the data were processed

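The deposited table lists, for each nucleotide, a single reactivity score that names no library, its base, its strand and its hg38 position. The scores were used as the authors deposited them. The submitters' processing notes name cutadapt 3.4, STAR, for which no version was seen, and hg38, with no roles. How the DMSO signal, normalization and the libraries were handled was not given in the sources used here. All depths are unknown, so no interval that needs depth is given.

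The rows of bktRNA133 were read by name and put in 5' to 3' order, with 1-based coordinates. End boxes were the best matches in the first and last 20 nt. Structures were predicted with ViennaRNA 2.7.2 at 37 degrees C. Python 3.11.15, NumPy 2.4.6 and SciPy 1.17.1 were used, and the search and contrast steps were tested on simulated data. Nucleotides were named by rule: all box nucleotides, the 4 nt before each D-type box, the 10 highest and 3 lowest scores, and predicted loops, stems and runs of at least 3 zeros. The repeats of at least 6 nt, the further D-type matches, the pyrimidine stretch and the regions between boxes were chosen after their values were seen. The RNA and the lists were chosen with earlier results of these data known. NAI-N3 against DMSO was not tested, since no value per library was used.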

Additional observations from a re-analysis of the deposited data

How the results depend on the processing

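Of 67 alternative settings over 7 results, 48 kept the sign and stayed within 1.5 times of the reported value (for shares, within the interval; for ranks, the sign alone), 15 moved further and 4 reversed. The settings that leave out nt 117 to 137 or use the UUGA at nt 55 as the internal box were chosen after seeing the data. Some of the 48 could not change their value. In the contrast before the D-type boxes, no compared nucleotide lies in the first 2 or last 2 nt or in nt 117 to 137. None of them scored below 0 either. For the end boxes, leaving out nt 117 to 137 dropped box C, so box D alone was compared. The internal boxes minus the rest reversed with zeros not measured (-0.00146) and for the D'-like box alone (-0.00135), and moved to 0.00649 for the C'-like box alone and 0.00890 with the UUGA at nt 55. Unpaired minus paired reversed without dangling end energies (-0.000613) and with boxes forced unpaired (-0.000841), and moved to 0.00230 at 25 degrees C and 0.00401 with medians. Hairpin loops minus other unpaired nucleotides (0.00591) moved to 0.000382 with zeros not measured, 0.0142 with medians, 0.00373 without nt 117 to 137, 0.00304 at 25 degrees C and 0.00193 with boxes forced unpaired. The nucleotides before the D-type boxes minus the boxes (0.0222) moved to 0.0146 with 4 nt, 0.0144 for box D alone and 0.0107 with the UUGA at nt 55. The end boxes minus the rest (-0.00684) became 0 with medians. The share of zeros was 37.9% without nt 117 to 137, and the mean score 0.0120 with zeros not measured. The causes were not tested. With zeros not measured, the end boxes and the nucleotides before box D gave no value, since box D held only zeros. No paired analysis was possible because the single profile carries no replicate numbers, and leaving out a replicate was not possible either. The depth behind the scores is unknown, and whether few reads lie behind the coarse steps was not tested.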
